A study of Homo sapiens with 24 samples.

Results

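The comparison described here is that of GSK-J1 with sham treatment in Cal33 cells that were not irradiated, measured by RNA-seq of total RNA. It comprised 6 of the 24 libraries of the study, 3 of cells given 4.5 µM GSK-J1 and 3 of sham controls, chosen by the labels for cell line and treatment alone. Cal33 is an established tongue line of squamous cell carcinoma of the head and neck (HNSCC), labelled as wild type, and RNA of both groups was taken at 24 h. The remaining libraries were 6 of irradiated Cal33 cells (4 Gy with or without GSK-J1) and 12 of SAS cells, a second HNSCC line, in the same 4 treatments. The labels call the control sham, the study describes it as the solvent DMSO, and no source says whether replicates of a group were separate cultures, so the p-values may measure only a technical spread.

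GSK-J1 inhibits the histone demethylases UTX and JMJD3, which are encoded by KDM6A and KDM6B and take methyl groups off lysine 27 of histone H3. Trimethylation at this residue is written by EZH2 within Polycomb repressive complex 2, is read by Polycomb repressive complex 1, and marks silent developmental regulators such as the HOX genes. In squamous epithelium, JMJD3 is known for its part in the induction of differentiation genes. The transcript data do not measure the histone mark.

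The 6 libraries held 64417175 to 96848227 counts on the strand of the gene (median 76178377), with 24474 to 25641 genes detected in each. The top 10 genes by count made up 9.96 to 11.17% of a library, and mitochondrially encoded genes took 9.307 to 10.06%. All 12 markers of squamous epithelial cells were tested and well-counted, which means a mean of at least 100 counts per library, and the basal keratin KRT5 alone had 5183 ± 1117 CPM (SD, n = 3) under GSK-J1 and 5089 ± 931 in sham controls. CPM are counts scaled to a common library size by TMM. Markers of other cell types summed to 73.8 to 101.9 CPM under GSK-J1 and 96.6 to 104.3 in sham controls over 24 genes. Of these, 18 passed the filter and 7 were well-counted. Only 4 of the 24 were at 0 counts in all 6 libraries. They were the T cell marker CD3D, the B cell marker MS4A1, the melanocyte marker MLANA and the muscle factor MYOG.

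The libraries of a group stood farther apart than some libraries of different groups. Over the 13165 well-counted genes, the root mean square difference in log2(CPM + 1) was 0.26 to 0.34 among the GSK-J1 libraries and 0.37 to 0.41 among the sham libraries. Between the groups, GSK-J1 replicate 1 and sham replicate 3 differed by 0.15, GSK-J1 replicate 2 and sham replicate 1 by 0.19, and GSK-J1 replicate 3 and sham replicate 2 by 0.14. The remaining between-group distances were 0.30 to 0.40. Thus each GSK-J1 library was nearest to a sham library that carries another replicate number. A difference beyond 2-fold was seen in 3, 2 and 0 well-counted genes between the members of these close pairs, compared with 56 to 177 between GSK-J1 libraries and 186 to 303 between sham libraries. No source links these libraries, and no test was built on these distances. Directions within the close pairs are given below for some genes and lists only. The pairs were picked from these same values, so such a direction is no test of an effect. The test, the intervals and the statements on overlap below take the libraries as unpaired, so the spread that the close pairs share enters all of them, and a difference between the members of a close pair that is small beside this spread would not be seen.

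**Figure D1:**
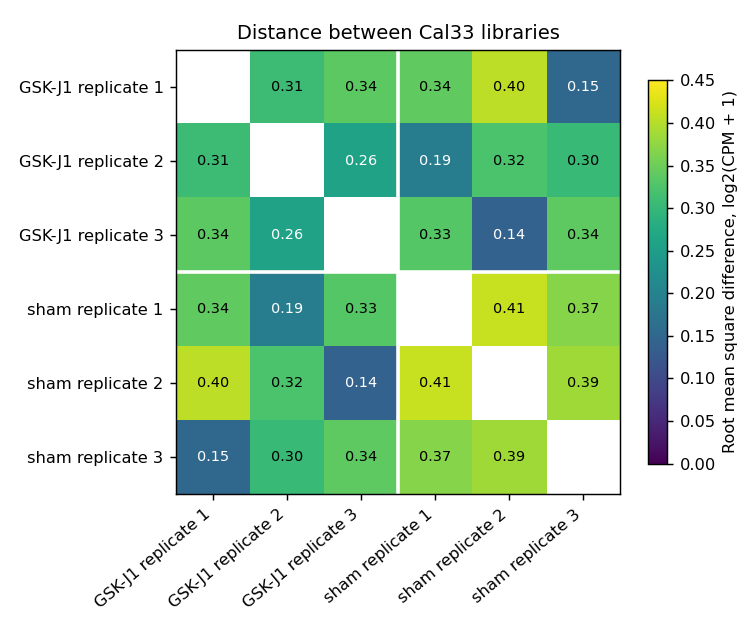
Root mean square difference in log2(CPM + 1) over the well-counted genes between each pair of the 6 Cal33 libraries, with darker cells for smaller values; white lines part the GSK-J1 from the sham libraries. The smallest values, 0.14, 0.15 and 0.19, join libraries of different groups and different replicate numbers.

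With these 6 libraries, no gene passed the test for GSK-J1 against sham. Of 24024 genes tested with edgeR's quasi-likelihood test, 0 (0%) had a Benjamini-Hochberg adjusted p under 0.05, and the lowest adjusted p was 0.99999. By estimate 12073 genes were higher and 11951 lower, and the median log2 fold change over all genes was 0.00073. An unadjusted p under 0.05 was found for 166 genes (0.691%), 68 higher and 98 lower, which is fewer than the 1201.2 that make up a share of 0.05. DESeq2 on the same libraries called 1 gene and had 31 at an unadjusted p under 0.05. The gene called by DESeq2 was RP11-598D12.3, which edgeR also called when no count filter was set. The GSK-J1 libraries lay wholly above the sham libraries for 423 genes (1.76%) and wholly below for 442 (1.84%).

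**Figure D2:**
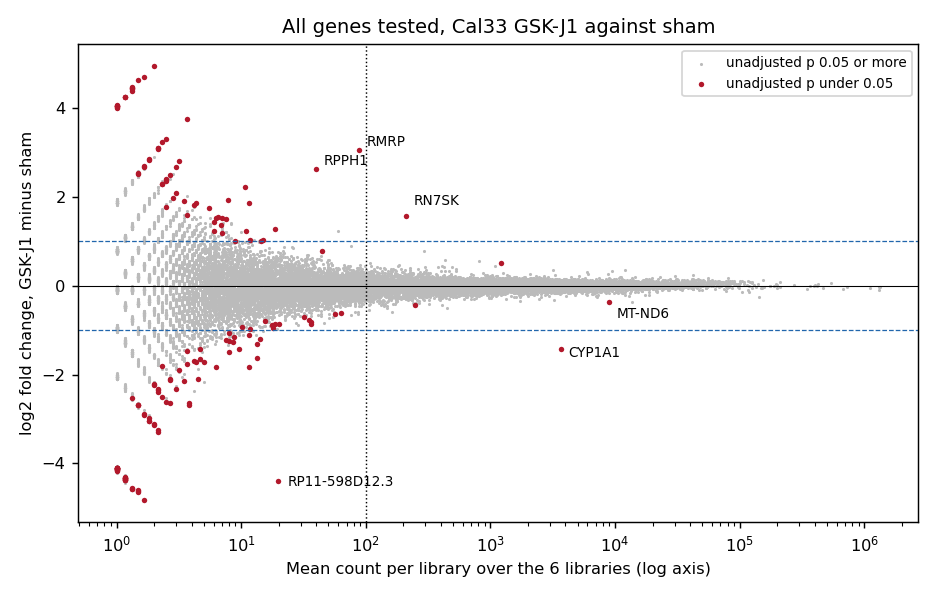
Log2 fold change of GSK-J1 against sham (vertical axis) over the mean count per library (horizontal log axis) for the 24024 genes tested, with 1 point per gene. Red points are the 166 genes at an unadjusted p under 0.05, dashed lines mark 2-fold, and the dotted line marks the 100 counts of a well-counted gene. Most red points lie at the left, and only 5 are well-counted.

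For well-counted genes, the size of any effect could be bounded. The 95% interval of the log2 fold change stayed within 2-fold in both directions for 12815 of 13165 genes (97.3%), within 1.5-fold for 10494 (79.7%) and within 0.32 on the log2 scale, the tightest of 3 limits, for 2263. These intervals hold gene by gene. With Bonferroni intervals, which hold for all 13165 genes together, 36 genes were bounded within 2-fold and none within 1.5-fold. The count at the tightest limit moved most with the libraries used. It was 96, 81 and 12 without GSK-J1 replicates 1, 2 and 3, and 1774, 413 and 202 without sham replicates 1, 2 and 3. The estimates themselves were smaller than their intervals, with a median absolute log2 fold change of 0.05 among well-counted genes and a 99th percentile of 0.30. The median SD of log2(CPM + 1) within a group was 0.18, whereas the group means differed by a median of 0.04. In 678 of the 13165 genes the difference of the means was larger than this within-group SD.

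The bound tightened with the count. Genes with a mean of 10 to 100 counts had a median half-width of 0.84 on the log2 scale, and 42.9% of them were bounded within 2-fold. At 100 to 1000 counts the half-width was 0.50 and 92.6% were bounded. At 1000 to 10000 counts it was 0.33 and 99.4% were bounded, and above 10000 counts it was 0.30 and 99.6% were bounded. Below 10 counts the median half-width was 2.01, which is 4.03-fold, and 0.195% of 6169 genes were bounded within 2-fold. This class also held 132 of the 166 genes at an unadjusted p under 0.05. For these genes a difference of 2-fold was not detectable at this depth and spread.

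**Figure D3:**
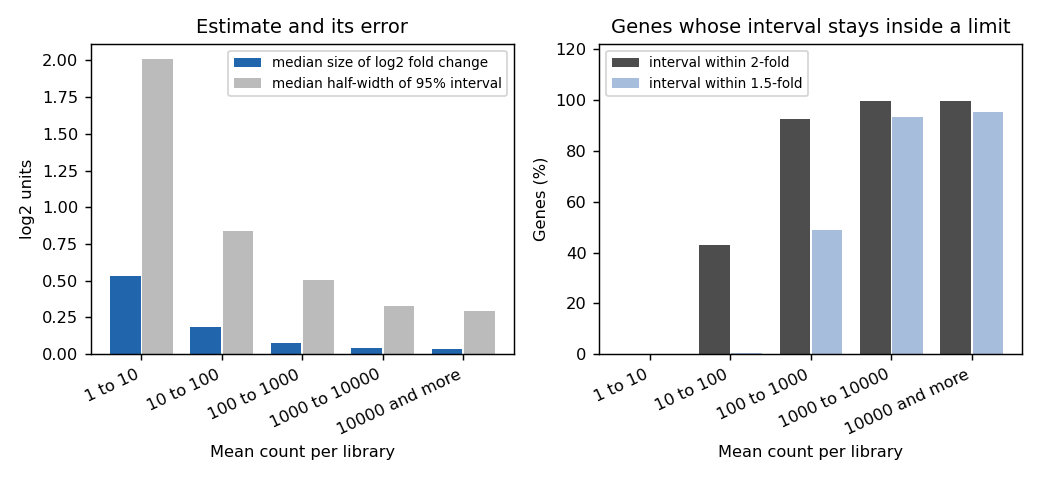
Left, median absolute log2 fold change (blue) and median half-width of its 95% interval (grey) by mean count per library. Right, percentage of genes whose interval lies within 2-fold (dark) or within 1.5-fold (light). The half-width falls from 2.01 to 0.30 across the classes and exceeds the median estimate in each.

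The messages of the GSK-J1 targets were present in every library. KDM6A (chromosome X, 44732757 to 44971847 of hs37d5, plus strand) had 39.2, 36.1 and 39.2 CPM in GSK-J1 replicates 1 to 3 and 31.7, 42.1 and 47.7 CPM in sham replicates 1 to 3. Its log2 fold change was -0.09 (standard error, SE, 0.16, edgeR adjusted p = 0.99999), with a 95% interval of 0.737-fold to 1.21-fold. KDM6B (chromosome 17, 7743222 to 7758114, plus strand) had 95.7, 87.3 and 63.3 CPM under GSK-J1 and 110.2, 53.6 and 94.6 CPM in sham controls. The sham libraries spanned the GSK-J1 libraries for both genes. The log2 fold change of KDM6B was -0.07 (SE 0.25, edgeR adjusted p = 0.99999), and its interval ran from 0.648-fold to 1.40-fold. Both estimates changed sign with 1 library left out. That of KDM6A was 0.05 without sham replicate 3, and that of KDM6B was 0.15 without sham replicate 1, 0.09 without GSK-J1 replicate 3 and 0.0028 without sham replicate 3.

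Genes of the Polycomb complexes were all well-counted and none was called. Of 30 such genes, 17 were higher and 13 lower by estimate, the median log2 fold change was 0.01, and all 30 were bounded within 2-fold and 29 within 1.5-fold. EZH2, the methyltransferase of the complex, had 46.2 ± 11.1 CPM under GSK-J1 and 49.4 ± 15.8 in sham controls (interval -0.62 to 0.43 on the log2 scale). Its partner SUZ12 had 49.3 ± 5.48 and 48.1 ± 9.74 CPM, and EED, which binds the methylated residue, had 26.8 ± 2.74 and 26.7 ± 6.98 CPM. YAF2, a subunit of variant Polycomb repressive complex 1, was the member with the smallest p. Its GSK-J1 libraries, at 7.58, 7.47 and 8.37 CPM, lay above the sham libraries at 6.45, 7.36 and 6.88 CPM, and its log2 fold change was 0.18 (SE 0.16, edgeR adjusted p = 0.99999). Of 19 other Jumonji demethylases tested, all were bounded within 2-fold, with a median of -0.02.

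Among genes that Polycomb silences in many tissues, the well-counted members stayed within similar limits. This bound covers members that Cal33 transcribes, and not those at few or no counts. Of 39 HOX genes, which set position along the body axis, 36 were tested, 18 higher and 18 lower by estimate, and all 21 well-counted members were bounded within 2-fold. Of 56 developmental Polycomb target genes in the files, 42 passed the filter, and all 31 well-counted members were bounded within 2-fold, 22 of them within 1.5-fold. The transcription factor SOX2, known from stem cells and squamous lineages, had 67.8 ± 12.5 CPM under GSK-J1 and 72.2 ± 18.1 in sham controls, and the endoderm factor GATA6 had 14.2 ± 1.33 and 14.3 ± 2.74 CPM. NANOG, a pluripotency factor, had a mean of 2.17 counts per library, at which its interval ran from -1.62 to 3.72 on the log2 scale. A log2 fold change of 1.91 for HOXC12 rested on a mean of 1 count per library.

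CYP1A1, which encodes a monooxygenase of xenobiotics and is the classical target of the aryl hydrocarbon receptor, had the lowest log2 fold change of the well-counted genes. Its gene lies on chromosome 15 from 75011883 to 75017951 of hs37d5 on the minus strand. It had 15.1, 42.0 and 18.2 CPM in GSK-J1 replicates 1 to 3 and 87.7, 21.3 and 91.2 CPM in sham replicates 1 to 3. Sham replicates 1 and 3 were above every GSK-J1 library, and sham replicate 2 lay among them. Within each of the close pairs named above, the GSK-J1 library had the lower value, by little in the pair of GSK-J1 replicate 3 and sham replicate 2. This direction was not tested. The log2 fold change was -1.41 (SE 0.52, interval -2.57 to -0.26), with an adjusted p of 0.99999 from edgeR, and it ranged from -2.01 to -1.13 when 1 library was left out. Its promoter is shown because no other well-counted gene had a lower estimate. The window holds 250 bases before and 50 after the start in the RefSeq annotation (chr15:74725479-74725778, minus strand, GRCh38.p14), and capitals mark the letters GCGTG, the core of the element that the aryl hydrocarbon receptor binds.

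CYP1A1 promoter: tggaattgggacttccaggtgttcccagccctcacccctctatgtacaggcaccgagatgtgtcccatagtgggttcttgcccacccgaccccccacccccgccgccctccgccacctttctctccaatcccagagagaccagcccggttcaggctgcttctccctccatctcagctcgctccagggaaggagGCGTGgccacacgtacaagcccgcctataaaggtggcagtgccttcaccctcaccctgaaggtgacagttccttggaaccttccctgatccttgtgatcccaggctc

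The core occurred 1 time on this strand and 0 times on the other, and 36.5% of 35116 promoter windows of this length held it on either strand. Of 13 aryl hydrocarbon receptor targets tested, 6 had a higher and 7 a lower estimate around a median of -0.0036 on the log2 scale, and CYP1A1 was the 1 member at an unadjusted p under 0.05. CYP1B1, a related monooxygenase, had 15.0 ± 6.17 CPM under GSK-J1 and 18.3 ± 8.05 in sham controls, with an interval of -1.10 to 0.52 on the log2 scale. NQO1, a quinone reductase that is shared with the NRF2 pathway, had 0.12 (SE 0.13).

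Among the other well-counted genes at an unadjusted p under 0.05 were MT-ND6, CA9 and NPIPB5. MT-ND6 encodes a subunit of respiratory complex I and is the protein-coding gene of the light-strand transcript of the mitochondrial genome (14149 to 14673, minus strand). It had 95.9, 98.7 and 102.4 CPM under GSK-J1 and 117.0, 133.4 and 134.2 CPM in sham controls, so the groups did not overlap. Its log2 fold change was -0.37 (SE 0.11, interval -0.63 to -0.12, edgeR adjusted p = 0.99999), which is bounded within 2-fold. With counts taken without regard to strand, where reads of the opposite transcript add to it, the estimate was -0.09. CA9, the hypoxia-induced carbonic anhydrase IX (chromosome 9, 35673853 to 35681156), had 2.71, 2.55 and 2.72 CPM under GSK-J1 and 3.39, 3.58 and 3.86 CPM in sham controls, again without overlap. Its log2 fold change was -0.44 (SE 0.19, edgeR adjusted p = 0.99999). NPIPB5, a member of a family of near-identical copies on chromosome 16 whose reads may be split between them, had 12.5, 19.3 and 22.8 CPM under GSK-J1 and 11.7, 14.2 and 12.2 CPM in sham controls.

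**Figure D4:**
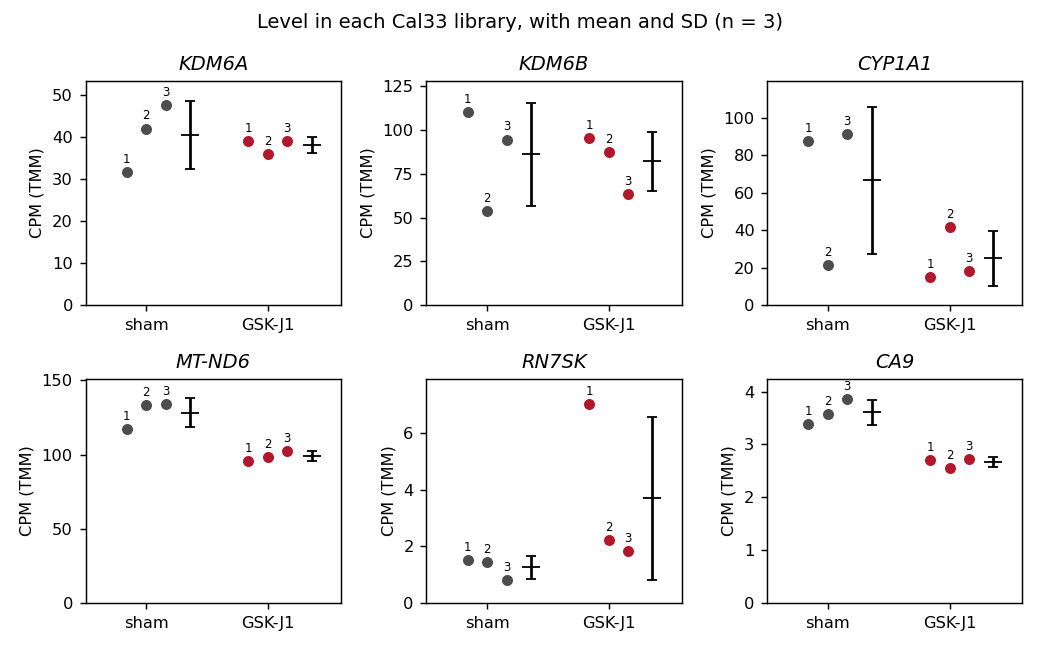
CPM (vertical axes, from 0) of 6 genes in the sham and GSK-J1 libraries. Points are single libraries with their replicate numbers, and bars give mean ± SD (n = 3). The groups overlap for KDM6A, KDM6B and CYP1A1 and do not for MT-ND6, RN7SK and CA9, and GSK-J1 replicate 1 holds the highest RN7SK value, 7.02 CPM.

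Small structural RNAs had large estimates that rested on few counts or on 1 library. RN7SK, an RNA that keeps P-TEFb from acting in elongation, had the highest log2 fold change of the well-counted genes, with 7.02, 2.22 and 1.83 CPM under GSK-J1 and 1.51, 1.46 and 0.794 CPM in sham controls. Its log2 fold change of 1.57 (SE 0.50, edgeR adjusted p = 0.99999) was 0.70 without GSK-J1 replicate 1. RMRP, the RNA of ribonuclease MRP, had 418, 30 and 32 counts under GSK-J1 and 20, 14 and 13 in sham controls, and its log2 fold change of 3.05 was 0.98 without that library. RPPH1, the RNA of ribonuclease P, had 188, 12 and 13 counts against 12, 9 and 7, and its estimate of 2.62 was 0.41 without it. GSK-J1 replicate 1 was thus the highest of the 6 libraries for all 3 RNAs. It was also the most deeply sequenced, at 96848227 counts. Sham replicate 3, at 92948903 counts, was the lowest of the 6 libraries for all 3 RNAs, and a link with depth was not tested. The signal recognition particle RNA RN7SL1 had 13.7, 9.04 and 12.6 CPM under GSK-J1 and 6.72, 5.87 and 11.5 CPM in sham controls, and its log2 fold change was 0.55 (SE 0.27). The summed level of all small structural RNAs was 57.9, 30.4 and 39.4 CPM under GSK-J1 and 22.5, 27.3 and 40.9 CPM in sham controls, so the groups overlapped. The GSK-J1 library was the higher one in each close pair, as in several other lists given below, and this direction was not tested. Of 30 members tested, 4 were at an unadjusted p under 0.05. Over all genes tested it was 166 of 24024 (0.691%), and below 10 counts 132 of 6169. The median log2 fold change of the 30 members, 0.20, was -0.17 without GSK-J1 replicate 1.

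Small nucleolar RNAs guide the modification of ribosomal RNA. SNORD20 (chromosome 2, 232321155 to 232321234, minus strand) was the member with the smallest p, at 4, 5 and 7 counts under GSK-J1 and 21, 18 and 14 in sham controls. Its log2 fold change was -1.83 (SE 0.48, edgeR adjusted p = 0.99999), and its groups did not overlap. The RNA is shown to give its size and class, as in GENCODE v29, with capitals for the letters TGATGA of the C box, which occur 2 times, and for the last CTGA, the letters of the D box, near the end.

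SNORD20: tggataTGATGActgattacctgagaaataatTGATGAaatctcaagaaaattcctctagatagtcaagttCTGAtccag

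The RNA has 80 bases. Of 120 small nucleolar RNAs tested, 56 were higher and 64 lower by estimate, and 2 were well-counted. An unadjusted p under 0.05 was found for 4 of the 120, beside 166 of 24024 (0.691%) over all genes and 132 of 6169 below 10 counts.

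The remaining genes with the smallest p at a mean of 10 or more counts were mostly at few counts. EGR2, an early growth response factor, had 21, 19 and 15 counts under GSK-J1 and 8, 1 and 5 in sham controls (log2 fold change 1.86, SE 0.55, and 1.47 to 2.55 with 1 library left out). RP11-598D12.3 (chromosome 16, 33790873 to 33794018, minus strand), an uncharacterised transcript, had 3, 1 and 1 counts against 14, 20 and 79 (log2 fold change -4.41, SE 0.73, and -3.54 without sham replicate 3), and both had an edgeR adjusted p of 0.99999. Both were without overlap of the groups. IL4I1, an amino acid oxidase that interleukin 4 induces, had 0.270, 0.185 and 0.249 CPM against 0.111, 0.0930 and 0.140 CPM. RBM24, an RNA-binding protein of muscle, had 0.135, 0.214 and 0.249 CPM against 0.0694, 0.108 and 0.107 CPM. The other higher genes by this rule were AC079922.2, FAM224B and LINC00623, with log2 fold changes of 1.04 to 2.21. The highest, FAM224B, had 5, 37 and 11 counts under GSK-J1 and 7, 2 and 2 in sham controls. Its groups overlapped, as did those of LINC00623. The other lower ones were RP11-100G15.7, CCDC160, AL162151.3, CTC-281F24.1, RP11-573D15.2 and CTD-2619J13.23, with log2 fold changes of -1.63 to -0.65.

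Beyond RN7SK and CYP1A1, no well-counted gene had an estimate beyond 2-fold, and only RP4-765C7.2 and SPOCK1 exceeded 1.5-fold. RP4-765C7.2 had 4.63, 4.36 and 4.68 CPM under GSK-J1 and 0.153, 3.76 and 3.96 CPM in sham controls, so sham replicate 1 stood apart from the other 5 libraries. Its log2 fold change of 0.79 was 0.24 without that library. SPOCK1, a proteoglycan of the extracellular matrix, had 1.76, 1.17 and 1.94 CPM against 1.79, 2.88 and 2.73 CPM (log2 fold change -0.60, SE 0.28). The integrin chain ITGB2 had 0.57 but -0.55 without GSK-J1 replicate 1, at 12.4 CPM the highest library. At the lower end were RP11-909N17.2 (-0.55, and 0.08 without sham replicate 1), the troponin gene TNNI2 (-0.51) and SPP1, which encodes osteopontin (-0.50). The widest intervals of well-counted genes belonged to COL14A1, IFI27 and CASP14. IFI27, an interferon-induced gene, had 17.6, 194 and 44.8 CPM under GSK-J1 and 239, 36.2 and 18.8 CPM in sham controls, so that its interval ran from -2.33 to 1.93 on the log2 scale. COL14A1, a collagen chain, and CASP14, a caspase of cornifying keratinocytes, had intervals of -2.08 to 2.29 and -1.84 to 2.25. In all 3, both groups held a library more than 4-fold above its lowest one.

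Of the 31 gene lists, none held a called gene. The 26 with 10 or more genes at usual counts had medians between -0.16 and 0.08, of which 24 lay within 0.1 of 0, beside a median of 0.0058 over all well-counted genes. In 16 of them every well-counted member was bounded within 2-fold. Of the proliferation genes, 45 of 45 of G1/S and DNA replication and 44 of 44 of G2/M and mitosis were bounded within 2-fold. Within 1.5-fold were 30 (66.7%) and 34 (77.3%) of them, compared with 79.7% of all well-counted genes. The proliferation marker MKI67 had 419 ± 50.8 CPM under GSK-J1 and 450.1 ± 83.2 in sham controls. All 41 well-counted genes of double-strand break repair were bounded within 2-fold. Of 42 repair genes, 34 were lower by estimate, with a median of -0.02 that was -0.16 without sham replicate 1 and 0.10 without sham replicate 2. Among 29 p53 targets, 27 were bounded within 2-fold, and the kinase inhibitor CDKN1A had 79.3 ± 25.7 and 79.5 ± 30.5 CPM.

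**Figure D5:**
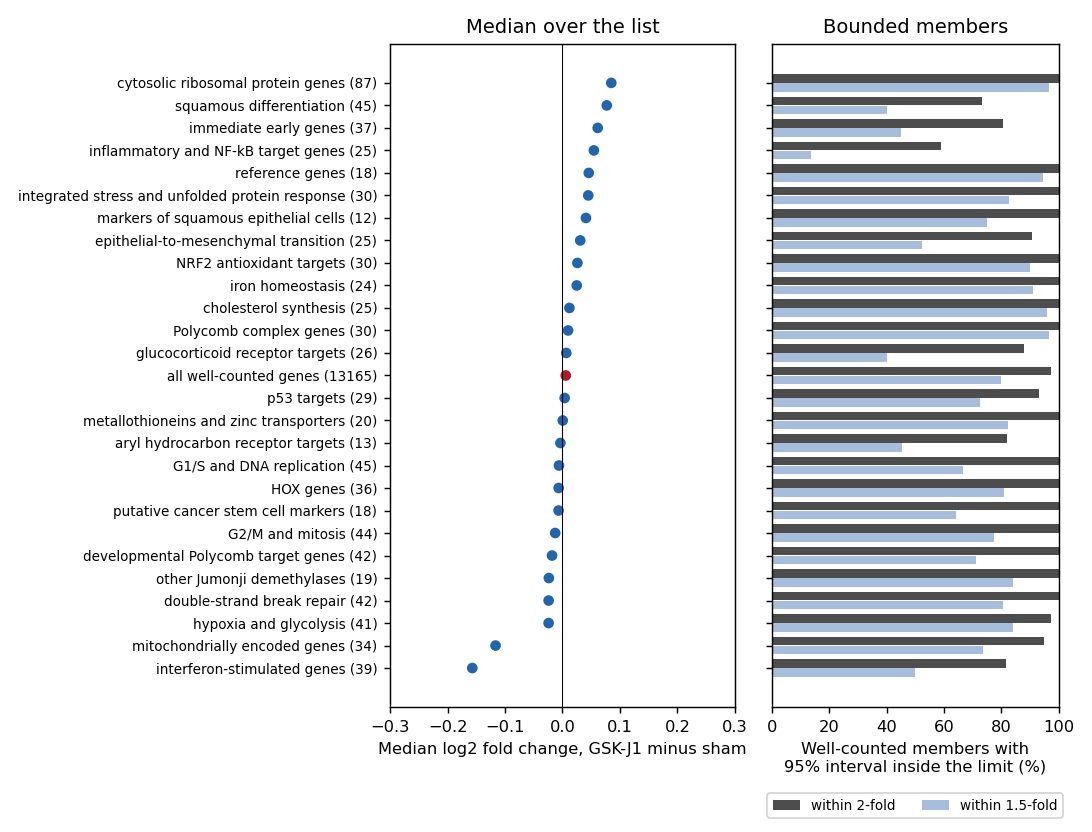
Left, median log2 fold change of GSK-J1 against sham for the 26 lists with 10 or more genes at usual counts (blue) and for all well-counted genes (red), with the number of genes tested in parentheses. Right, percentage of well-counted members whose 95% interval lies within 2-fold (dark) or 1.5-fold (light). Medians run from -0.16 to 0.08, and inflammatory genes have the smallest bounded percentage within 2-fold, 59.1%.

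Putative cancer stem cell markers showed no call. All 14 well-counted members of 18 tested were bounded within 2-fold and 9 within 1.5-fold. The hyaluronan receptor CD44 had 487 ± 68.7 CPM under GSK-J1 and 480.4 ± 80.6 in sham controls (interval -0.32 to 0.36 on the log2 scale). ALDH1A3, the aldehyde dehydrogenase, had 178, 187 and 172 CPM under GSK-J1 and 193, 182 and 195 CPM in sham controls (log2 fold change -0.09, SE 0.11). PROM1, the stem cell marker CD133, had a mean of 7.5 counts, at which its interval ran from -0.23 to 2.44. For genes of epithelial-to-mesenchymal transition, 19 of 21 well-counted members were bounded within 2-fold. The transition factor SNAI2 had 24.0 ± 5.01 and 22.1 ± 4.47 CPM, and the mesenchymal filament VIM had a mean of 9 counts.

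Squamous differentiation genes were less tightly bounded. Of 30 well-counted members, 22 (73.3%) were bounded within 2-fold, compared with 97.3% of all well-counted genes, and the median of 0.08 was -0.12 without GSK-J1 replicate 2 and 0.20 without sham replicate 1. Their summed level was 13351, 20796 and 17532 CPM under GSK-J1 and 22936, 15742 and 13264 CPM in sham controls, and both groups covered nearly the same range. KRT14, a keratin of basal cells, had 695, 1098 and 451 CPM against 1021, 381 and 591 CPM. IVL, the cornified envelope protein involucrin, had 7.12 ± 1.2 and 7.93 ± 1.18 CPM. TP63, the lineage factor, had 373 ± 68.6 and 359 ± 57.5 CPM, and the keratin KRT15 was among the 5 genes with the most counts, with 6432, 11137 and 10095 CPM under GSK-J1 and 12816, 9022 and 6508 CPM in sham controls. The other 4 of these genes were MT-ND4, MT-CO2, MT-CO1 and MT-RNR2, with log2 fold changes of -0.09 to -0.02 and SEs of 0.10 to 0.13.

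Signalling-dependent lists were bounded less often than the 97.3% of all well-counted genes. Of 22 well-counted inflammatory and NF-kB target genes, 13 (59.1%) were bounded within 2-fold and 3 within 1.5-fold, and their summed level was 1942, 1013 and 784 CPM under GSK-J1 and 1096, 708 and 1878 CPM in sham controls. Immediate early genes were bounded within 2-fold in 25 of 31 cases, and their sums were 1981, 2496 and 1369 CPM against 2325, 1316 and 1932 CPM. FOS, a subunit of AP-1, had 29, 103 and 9.71 CPM under GSK-J1 and 79.5, 8.35 and 23.4 CPM in sham controls, with an interval of -1.54 to 2.23. EGR1 had 127, 336 and 59.5 CPM against 254, 58.9 and 96.5 CPM. Glucocorticoid receptor targets were bounded within 2-fold in 22 of 25 cases, and the receptor co-chaperone FKBP5 had 31.5 ± 2.68 and 28.5 ± 3.84 CPM. Interferon-stimulated genes were lower by estimate in 37 of 39 cases, with a median of -0.16, none at an unadjusted p under 0.05 and 31 of 38 well-counted members bounded within 2-fold. Their summed level was 2998, 4389 and 3637 CPM under GSK-J1 and 4730, 3805 and 3530 CPM in sham controls, and the median was 0.03 without sham replicate 1. The GSK-J1 library had the lower sum in each close pair. For immediate early and ribosomal protein genes it had the higher sum in each close pair. Higher sums in each pair were also found for cholesterol synthesis, the integrated stress and unfolded protein response, and metallothioneins and zinc transporters. Lower sums in each pair were also found for other Jumonji demethylases, small nucleolar RNAs and markers of other cell types. Apart from small structural RNAs, the remaining lists were mixed between the pairs. These pairs were picked from the same data, and no direction within them was tested. The antiviral GTPase MX1 had 72.4, 207 and 115 CPM against 252, 110.5 and 76.4 CPM.

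Metabolic and stress lists were bounded closely. All well-counted members were within 2-fold for NRF2 antioxidant targets (30), cholesterol synthesis (25), the integrated stress and unfolded protein response (29), iron homeostasis (22) and metallothioneins and zinc transporters (17). GSK-J1 is a chelating inhibitor of iron-dependent enzymes. The transferrin receptor TFRC, through which cells take up iron, had 383, 380.4 and 484 CPM under GSK-J1 and 263, 553 and 265 CPM in sham controls (log2 fold change 0.21, SE 0.27). The haem oxygenase HMOX1 had 6.10 ± 1.31 and 6.20 ± 1.10 CPM, ATF4 407 ± 37.6 and 383 ± 24.0 CPM, and the cholesterol synthesis gene HMGCS1 133 ± 14.3 and 136 ± 13.5 CPM. Of 38 well-counted hypoxia and glycolysis genes, 37 were bounded within 2-fold and EGLN3 was not. The angiogenic factor VEGFA had 214 ± 29.8 and 225 ± 44.9 CPM. Of the reference genes, all 18 were bounded within 2-fold and 17 within 1.5-fold, and GAPDH had 4946 ± 849 and 5005 ± 851 CPM. All 83 well-counted ribosomal protein genes were bounded within 2-fold and 80 within 1.5-fold, as were 18 and 14 of 19 well-counted mitochondrially encoded genes. Both lists leaned one way by small amounts, beside 50.3% higher among all genes tested. Of 87 ribosomal protein genes tested, 82 were higher by estimate, with a median log2 fold change of 0.08 (0.02 to 0.14 with 1 library left out). Of 34 mitochondrially encoded genes tested, MT-ND6 among them, 30 were lower, with a median of -0.12 (-0.28 to -0.04). No ribosomal protein gene and 1 mitochondrial gene had an unadjusted p under 0.05, and genes of a list share libraries and scaling. Of 61 clustered histone genes tested, 8 were well-counted and 5 of these were bounded within 2-fold.

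The effect of GSK-J1 was set beside that in irradiated Cal33 cells and in SAS cells, each from its own 6 libraries with controls of its own. The difference between the unirradiated and the irradiated effect in Cal33 passed the test for 0 of 24351 genes (0%, edgeR adjusted p under 0.05, with 209 at an unadjusted p under 0.05 and 0 called by DESeq2). The difference between Cal33 and SAS passed for 0 of 24258 genes (0%, with 339 at an unadjusted p under 0.05 and 0 called by DESeq2). Across the 13165 genes well-counted in the unirradiated libraries, the Pearson correlation of the log2 fold changes was 0.41 with irradiated Cal33, and over 13101 of them it was 0.06 with SAS. Genes share libraries and are not independent replicates. For CYP1A1 the log2 fold change was -1.12 (SE 0.44) when GSK-J1 was added to 4 Gy, and -0.73 (SE 0.71) in SAS cells. The irradiated Cal33 libraries had 15.4, 31.4 and 16.4 CPM under both treatments and 76.1, 39.4 and 22.0 CPM after 4 Gy alone. MT-ND6 had -0.30 (SE 0.12) in irradiated Cal33 and -0.03 (SE 0.13) in SAS, and CA9 had -0.85 (SE 0.47) and -0.70 (SE 0.83). RN7SK had 0.26 (SE 0.42) in irradiated Cal33 and -1.63 (SE 0.74) in SAS, and NPIPB5 had -0.68 (SE 0.27) and 0.07 (SE 0.26). Of the 20 genes with the smallest p, 11 had the same sign in irradiated Cal33. In SAS, GSK-J1 replicate 1 held 99 counts of FAT1, a cadherin that Cal33 transcribes, and the other 5 unirradiated SAS libraries held 0. Without that library the difference between the lines again called 0 genes.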

How the data were processed

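RNA of Cal33 cells was sequenced in 3 GSK-J1 and 3 sham libraries (stranded total RNA kit, paired reads). According to the submitters' processing notes and the methods, the authors aligned reads to hs37d5 with STAR 2.5.3a, used SAMtools 1.6 and counted with featureCounts of Subread 1.5.1, and they used DESeq2 for their own comparisons. The deposited values used here are raw counts per gene for 57820 genes, not normalized, taken on the strand of the gene (94.82 to 94.99% of the stranded counts) at 64417175 to 96848227 per library. Deposited normalized columns were not used.

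In R 4.3.3, genes averaging 1 count or more were tested with edgeR 4.0.16 (TMM, quasi-likelihood F test on the 6 libraries, no covariate) at a Benjamini-Hochberg adjusted p under 0.05, and the common biological coefficient of variation was 0.21. The standard error is the absolute log2 fold change divided by the square root of F, and 95% intervals use the t quantile at the total degrees of freedom (median 9.77). Interactions were fitted on 12 libraries. The test was also run on simulated counts drawn independently for each library. That run does not cover the closeness of libraries across the groups seen here. The comparison and the gene lists were chosen with earlier results of these data known. Named were KDM6A and KDM6B, 5 genes of an earlier description, the 10 higher and 10 lower genes with the smallest p at a mean of 10 or more counts, the 5 well-counted genes with the largest fold change in each direction, the 5 genes with the most counts, the 3 widest intervals, and of each list the member with the smallest p, of which only some are printed, and some genes are not reported here. Other list members were named as well-known genes after their values were seen. Duplicated symbols were taken at the identifier with the highest count. Alternatives were DESeq2 1.42.0 and its size factors, limma 3.58.1 (log2 CPM, prior count 2), other filters and thresholds, 12 or 24 libraries, the replicate block, counts without strand, leaving out small RNAs and mitochondrial genes, and leaving out each library.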

Additional observations from a re-analysis of the deposited data

How the results depend on the processing

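No gene was called with DESeq2 size factors, filterByExpr, 12 or 24 libraries, limma, counts without strand, small RNAs and mitochondrial genes left out, other thresholds or any library left out. DESeq2 and the fit with no count filter called 1 gene each, RP11-598D12.3 (log2 fold change -4.51 with adjusted p = 0.0198, and -4.41 without a filter). Of genes at an unadjusted p under 0.05, filterByExpr gave 36, DESeq2 31, all 24 libraries 275, and leaving out 1 library 149 to 244. Leaving out 1 library gave 12290 to 12659 genes bounded within 2-fold, 8177 to 9145 within 1.5-fold and 12 to 1774 within 0.32 on the log2 scale, where all 24 libraries gave 4797. Bonferroni intervals gave 36, 0 and 0. These intervals are wider by construction. Both interactions called 0 genes under each alternative.

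Replicate numbers do not pair the GSK-J1 with the sham libraries. The deviations of same-numbered GSK-J1 and sham libraries from their group means correlated across genes at -0.16, -0.23 and -0.60, and no GSK-J1 library correlated best with its own number (0.82 with sham replicate 3, 0.60 with sham replicate 1 and 0.87 with sham replicate 2). The GSK-J1 libraries did correlate best with their own number in the irradiated groups (0.15 to 0.70 with the combination and 0.18 to 0.72 with 4 Gy). Whether the sham libraries are numbered in another order was not tested, since no source links them, and no crossed pairing was fitted. The block by number is therefore no check of a paired effect. With the replicate block, 0 genes were called, 48 were at an unadjusted p under 0.05, and 12814, 9550 and 0 well-counted genes were bounded within 2-fold, 1.5-fold and 0.32 on the log2 scale. IFI27 changed sign with the block, to 0.39.

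Alternatives were computed for 59 named genes, most of them picked from these data by small p or large fold change. Genes named after their values were seen were not among them. A sign that held is thus partly built in. Leaving out 1 library changed the sign of 12 of these 59 log2 fold changes, none of them called. The ranges were -0.235 to 0.0466 for KDM6A, -0.32 to 0.15 for KDM6B, -0.55 to 1.29 for ITGB2, -0.918 to 0.0845 for RP11-909N17.2, -0.0743 to 0.0085 for MT-ND4, -0.0655 to 0.0392 for MT-CO2, -0.131 to 0.0402 for MT-RNR2, -0.25 to 0.25 for KRT15, -0.74 to 1.03 for COL14A1, -1.65 to 1.64 for IFI27, -1.51 to 1.68 for CASP14 and -0.0215 to 0.27 for SFN. Of 30 list medians, 25 changed sign when a library was left out. The cause was not tested.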
